A study of Mus musculus with 6 samples.

Results

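The genes described here are 7 genes of the last steps of epidermal differentiation: Tgm1, Sprr1a, Sprr1b, Sbsn, Krtdap, Dmkn and Cnfn. They were chosen by name, with earlier results of these data known. A gene was taken as measured where a probe set was paired with its symbol and no other. All 7 were measured, each by 1 probe set, among 10261 genes and 11288 probe sets with a single symbol. The study hybridised 6 Affymetrix MoGene arrays with RNA of untreated primary mouse cells: 3 arrays are labelled keratinocytes, from newborn pups at P0, and 3 are labelled MEFs, mouse embryonic fibroblasts from E13.5 embryos. The strain of the MEFs is C57BL/6J in the methods, but DR-4 is the one their isolation protocol asks for; the strain of the pups was not stated in the sources used here. By that protocol MEF preparations pool several embryos without head and inner organs, keratinocytes come from newborn skin, and the cell types differ in age and culture, so that cell type, age, culture and any batch cannot be told apart. The labels call the arrays biological replicates without naming shared animals or days.

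In the epidermis, keratinocytes divide in the basal layer, move up through the spinous and granular layers and end as dead, flattened corneocytes. In this last step the plasma membrane is replaced by the cornified envelope, a sheath of proteins that transglutaminases cross-link to each other and that carries barrier lipids on its outside. Cultured keratinocytes can pass through part of this programme, which is why the genes of each stage are used to judge how far a culture has differentiated.

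The labels were checked with Cdh1, which encodes the epithelial adhesion protein E-cadherin, and Vim, the intermediate filament protein of mesenchymal cells. Cdh1 read 3.33, 2.16 and 3.26 on the keratinocyte-labelled arrays against 8.62, 8.59 and 8.73 on the MEF-labelled ones, in log2 signal. Vim read 11.93, 11.97 and 12.03 on the keratinocyte-labelled arrays against 3.81, 3.92 and 3.78 on the MEF-labelled ones. Both markers ran against the labels, on all 6 arrays: the epithelial marker was at least 7.71-fold lower and the mesenchymal one at least 48.1-fold higher on the keratinocyte-labelled arrays (limma, adjusted p = 4.03e-07 and 7.89e-10). Whether the labels were exchanged was not tested. The groups are called by their labels throughout, and if the labels were exchanged, every direction below would turn and each statement on a culture would be about the other one. Background was taken per array from 10 probe sets of olfactory receptors, which neither cell type is known to use, at their 95th percentile. It was 5.49 to 5.92 on the keratinocyte-labelled arrays and 6.05 to 6.58 on the MEF-labelled ones. On MEF-labelled replicates 1 and 3 it lay above the median of all deposited probe sets (6.53 against 6.25, and 6.58 against 6.31). On the other arrays it lay under that median. A value under background therefore does not show that a gene was silent. Pearson's r over probe sets was 0.985 to 0.989 within the keratinocyte-labelled arrays, 0.991 to 0.994 within the MEF-labelled ones and 0.629 to 0.647 across the groups.

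Of the 7 genes, 6 were lower on the keratinocyte-labelled arrays and Cnfn did not pass the test. Krtdap and Dmkn differed most, by -7.45 and -5.64 on the log2 scale, Sprr1b, Sprr1a and Sbsn by -3.65 to -3.09, and Tgm1 by -2.18. None of the 7 lay above background on any keratinocyte-labelled array, where the highest value of any of them was 4.99. On the MEF-labelled arrays, 3 of the 7 (Sprr1b, Krtdap and Dmkn) lay above background on all 3 arrays, 2 (Sprr1a and Sbsn) on 2 of 3, and 2 (Tgm1 and Cnfn) on none. The count has to be read against all genes, since 41.7% of them passed as lower on the keratinocyte-labelled arrays and 32.9% as higher (limma, adjusted p under 0.05). In 6 of the 7 genes all 3 keratinocyte-labelled arrays lay under all 3 MEF-labelled ones, as was so for 43.4% of all genes. The pattern of Sprr1b, Krtdap and Dmkn, above background on all 3 MEF-labelled arrays and on none labelled keratinocytes, was shared by 3.06% of all genes. The median difference was -3.15 over the 7 genes, against -0.12 over all genes. In cultures measured in bulk, fewer cells of a type and less RNA per cell cannot be told apart.

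**Figure D1:**
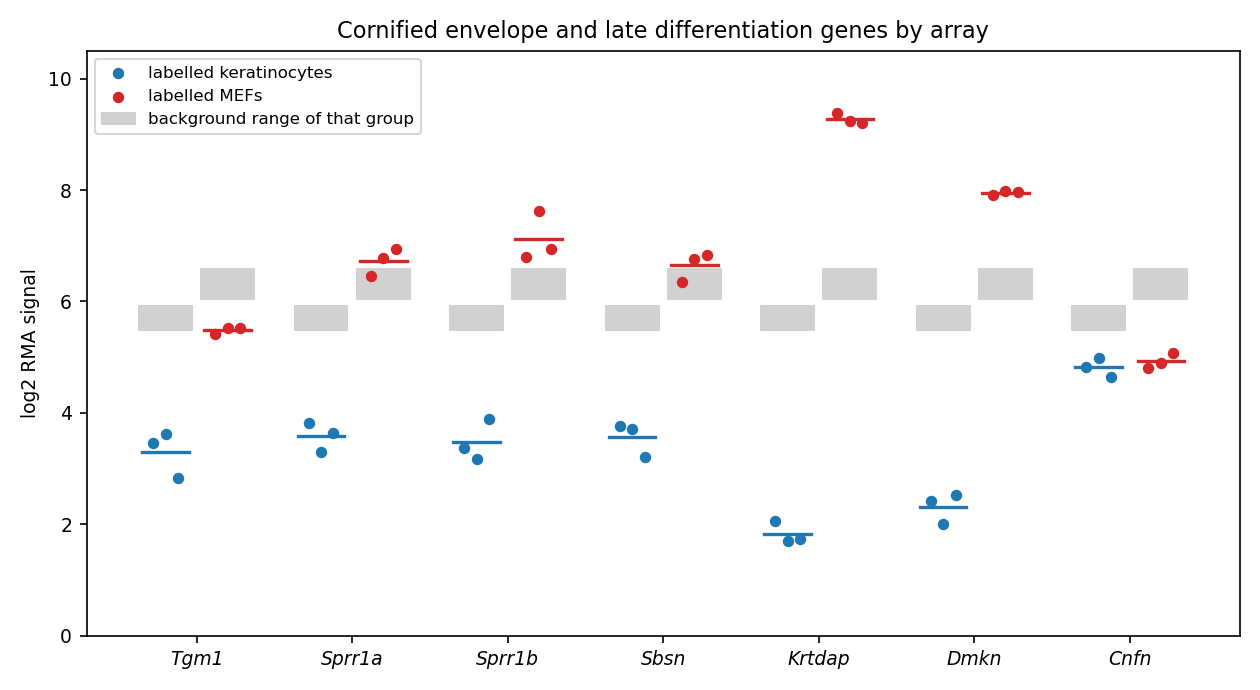
Log2 RMA signal of the 7 genes on each array (points), with the group mean (line), for the keratinocyte-labelled arrays (left of each pair) and the MEF-labelled arrays (right of each pair). The grey box is the range of that group's background; Krtdap and Dmkn are the genes farthest above it on the MEF-labelled arrays, and no point of the keratinocyte-labelled arrays reaches it.

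Tgm1 encodes transglutaminase 1, the membrane-bound enzyme that cross-links envelope proteins and attaches ceramides to them. It read 3.46, 3.62 and 2.83 on the keratinocyte-labelled arrays and 5.41, 5.53 and 5.52 on the MEF-labelled ones. The groups lay 1.78 apart at their nearest arrays, yet all 6 values were under background, on the MEF-labelled arrays by 0.52 to 1.13. The difference was -2.18 ± 0.19 (SE, n = 3 and 3, limma, adjusted p = 1.44e-05), with a 95% interval of -2.62 to -1.74, and no fold is given because neither group was above background. The 3 MEF-labelled arrays differed by little (SD 0.07) while the keratinocyte-labelled ones spread more (SD 0.42, above that of 96.9% of genes), chiefly through replicate 3.

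Sprr1a and Sprr1b encode small proline-rich proteins, short and flexible substrates that bridge other proteins in the envelope and that are also induced in stressed keratinocytes. Sprr1a read 3.82, 3.29 and 3.63 on the keratinocyte-labelled arrays and 6.46, 6.79 and 6.94 on the MEF-labelled ones. Replicate 1 of the MEF-labelled arrays lay 0.07 under its background and the other 2 above theirs, and the groups did not overlap. Sprr1a was at least 2.04-fold lower on the keratinocyte-labelled arrays (difference -3.15 ± 0.17, 95% interval -3.53 to -2.76, adjusted p = 6.74e-07). Sprr1b read 3.37, 3.17 and 3.89 on the keratinocyte-labelled arrays and 6.80, 7.63 and 6.95 on the MEF-labelled ones. All 3 MEF-labelled arrays were above background, and Sprr1b was at least 2.68-fold lower on the keratinocyte-labelled arrays (difference -3.65 ± 0.25, adjusted p = 3.04e-06). It was the least even of the 7 genes between MEF-labelled arrays, with a range of 0.83 and an SD of 0.44, above that of 98.5% of genes, because replicate 2 stood over the other 2. The small proline-rich genes are close copies of each other, and how far a probe set of one also reads another is not known here.

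Sbsn, Dmkn and Krtdap encode suprabasin, dermokine and keratinocyte differentiation-associated protein, secreted proteins of the upper epidermis. They lie side by side on chromosome 7, with 0 other protein-coding genes between them in RefSeq. Sbsn read 3.76, 3.72 and 3.20 on the keratinocyte-labelled arrays and 6.34, 6.77 and 6.84 on the MEF-labelled ones. As for Sprr1a, replicate 1 of the MEF-labelled arrays fell short of its background, by 0.19, and the other 2 exceeded theirs. Sbsn was at least 1.93-fold lower on the keratinocyte-labelled arrays (difference -3.09 ± 0.18, adjusted p = 1.39e-06). Dmkn read 2.42, 2.00 and 2.52 on the keratinocyte-labelled arrays and 7.90, 7.99 and 7.97 on the MEF-labelled ones. The 3 MEF-labelled arrays were nearly alike, with an SD of 0.04, and lay 1.37 to 1.94 above background. Dmkn was at least 4.76-fold lower on the keratinocyte-labelled arrays (difference -5.64 ± 0.14, adjusted p = 9.27e-09).

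Krtdap differed more than any other of the 7 genes. It read 2.06, 1.70 and 1.73 on the keratinocyte-labelled arrays and 9.39, 9.24 and 9.19 on the MEF-labelled ones. The groups lay 7.13 apart at their nearest arrays, and the MEF-labelled arrays were 2.61 to 3.19 above background. Krtdap was at least 11.9-fold lower on the keratinocyte-labelled arrays (difference -7.45 ± 0.12, 95% interval -7.73 to -7.16, adjusted p = 2.50e-09). Among 10261 genes ordered by difference from the lowest, Krtdap ranked 13, Dmkn 49, Sprr1b 189, Sprr1a 250, Sbsn 258, Tgm1 450 and Cnfn 5182.

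Cnfn encodes cornifelin, a component of the cornified envelope. It read 4.83, 4.99 and 4.64 on the keratinocyte-labelled arrays and 4.81, 4.90 and 5.08 on the MEF-labelled ones. The groups overlapped and no array was above background. The difference was -0.11 ± 0.12 (95% interval -0.39 to 0.17, adjusted p = 0.435), and an exact two-sided permutation test gave p = 0.5. For each of the other 6 genes the exact permutation test gave p = 0.1, the smallest that 3 against 3 arrays allow.

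Between replicates the 7 genes moved together only in part. Replicate 1 was the lowest of the MEF-labelled arrays in 6 of the 7 genes, Krtdap being the exception. That array also had the lowest median over all deposited probe sets in its group (6.25, against 6.30 and 6.31). The share of all genes lowest on it was not counted. On the keratinocyte-labelled arrays replicate 3 was lowest for Tgm1, Sbsn and Cnfn and replicate 2 for Sprr1a, Sprr1b, Krtdap and Dmkn. The SD over the keratinocyte-labelled arrays was 0.18 to 0.42, against a median of 0.14 over all genes, but all of these values were under background. Over the MEF-labelled arrays it was 0.04 to 0.44, against a median of 0.11 over all genes.

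**Figure D2:**
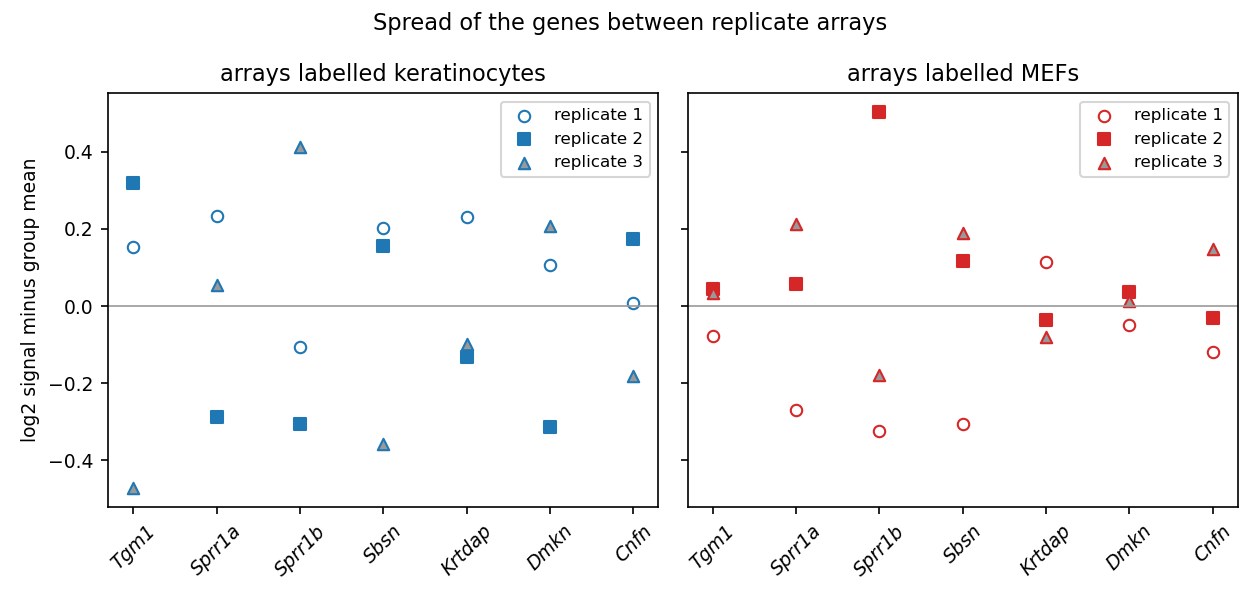
Log2 signal minus the mean of its group for each of the 7 genes, on the keratinocyte-labelled arrays (left panel) and the MEF-labelled arrays (right panel), with 1 symbol per replicate. On the MEF-labelled arrays, Sprr1b has the widest spread (SD 0.44) and Dmkn the narrowest (SD 0.04).

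The promoters of the 7 genes were searched for 4 motifs, in RefSeq windows of GRCm38.p6 from 250 bases before to 50 after each start. There were 10 windows for the 7 genes and 32851 for 27025 genes in all, and both strands were read. TGANTCA, a loose form of the site of AP-1 factors, was in a window of 5 of the 7 genes and of 8.97% of all genes. Tgm1 and Cnfn, which were above background on no array, had no match. TATAAA, the TATA box, was in Sprr1a, Sprr1b and Krtdap and in 15.7% of all genes. CACCC, bound by Krüppel-like factors, was in all 7 and in 59.8% of all genes, while AACCGG, a core of grainyhead sites, was in Krtdap only and in 7.74% of all genes. The windows describe sequence and say nothing of what binds there. The 250 bases before the start are printed 5′ to 3′ for the genes with a match to both TGANTCA and TATAAA, and for Cnfn, which had neither and did not pass the test. Capitals mark matches on either strand, so that a CACCC on the other strand reads GGGTG; the AACCGG of Krtdap lies past the stretch shown, and in Sprr1a a GGGTG runs into a TGAGTCA.
Sprr1a (chr3:92485882-92486131, minus strand): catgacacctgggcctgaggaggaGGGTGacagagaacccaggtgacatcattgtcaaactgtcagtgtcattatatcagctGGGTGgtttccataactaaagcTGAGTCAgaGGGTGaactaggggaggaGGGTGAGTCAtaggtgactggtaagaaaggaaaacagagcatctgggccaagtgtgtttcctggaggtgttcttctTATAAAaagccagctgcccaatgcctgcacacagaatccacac
Sprr1b (chr3:92438780-92439029, minus strand): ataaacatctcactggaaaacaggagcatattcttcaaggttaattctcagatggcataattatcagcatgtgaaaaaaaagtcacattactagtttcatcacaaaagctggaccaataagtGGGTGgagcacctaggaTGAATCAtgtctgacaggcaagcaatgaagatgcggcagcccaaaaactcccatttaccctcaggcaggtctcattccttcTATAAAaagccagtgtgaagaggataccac
Krtdap (chr7:30787655-30787904, plus strand): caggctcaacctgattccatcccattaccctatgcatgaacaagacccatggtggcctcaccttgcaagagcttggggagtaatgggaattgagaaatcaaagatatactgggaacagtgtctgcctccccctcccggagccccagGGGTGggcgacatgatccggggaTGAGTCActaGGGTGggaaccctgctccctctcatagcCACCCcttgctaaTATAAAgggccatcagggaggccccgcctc
Cnfn (chr7:25369725-25369974, minus strand): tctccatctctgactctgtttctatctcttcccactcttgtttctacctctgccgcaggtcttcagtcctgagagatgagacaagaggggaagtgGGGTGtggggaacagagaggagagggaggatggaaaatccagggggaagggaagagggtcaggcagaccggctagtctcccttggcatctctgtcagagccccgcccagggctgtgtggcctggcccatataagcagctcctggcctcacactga
Counted from the start of transcription, the AP-1 matches begin at -146 and -116 in Sprr1a, at -111 in Sprr1b and at -81 in Krtdap. TATAAA begins at -43 in Sprr1a and at -30 in both Sprr1b and Krtdap.

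The stage of the culture was read from further genes of the same programme. Of 55 listed other envelope proteins 8 were measured: 4 were lower on the keratinocyte-labelled arrays, 1 higher and 3 did not pass, with a median difference of -0.91. The share of lower genes was near the 41.7% of all genes. Ppl, the plaque protein periplakin, averaged 3.33 ± 0.21 on the keratinocyte-labelled arrays and 8.55 ± 0.07 on the MEF-labelled ones (SD, n = 3 each), at least 7.20-fold lower. Its partner envoplakin, Evpl, differed by -1.97 and passed background on 1 MEF-labelled array, and Scel, sciellin, by -2.26 without passing it. Sprr2j-ps, annotated as a pseudogene of the small proline-rich family, differed by -5.40. The late envelope genes Lce1h, Lce1j and Lce1k differed by 0.15 to 0.21 (adjusted p = 0.260 to 0.453) and were above background on no array. Cdsn, which encodes the corneodesmosome protein corneodesmosin, ran the other way, at 6.97 ± 0.06 on the keratinocyte-labelled arrays and 5.58 ± 0.05 on the MEF-labelled ones (at least 1.50-fold higher, adjusted p = 1.71e-06). Flg, Loricrin, Ivl, Krt1 and Krt10, the usual markers of the spinous and granular layers, were not analysed here.

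Enzymes that build or shed the envelope were mostly lower, as Tgm1 was. Of 12 measured genes for cross-linking, deimination and proteolysis, 11 were lower on the keratinocyte-labelled arrays and 1 was higher, with a median of -2.13. Among all genes 41.7% were lower and 32.9% higher. Of the 12 genes, 5 did not exceed background on any array. St14, the membrane protease matriptase, was at least 8.29-fold lower (difference -5.53, adjusted p = 6.53e-08) and Klk10, a kallikrein, at least 5.23-fold lower (-3.71). The proteases Prss8 (-2.81) and Tmprss13 (-2.41) passed the test without passing background. Tgm2, the widely expressed tissue transglutaminase, was 1.27-fold higher on the keratinocyte-labelled arrays (6.99 ± 0.08 against 6.64 ± 0.02 on the MEF-labelled ones, adjusted p = 6.50e-03). Tgm1 and Tgm2 passed in opposite directions.

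Of 12 measured genes for barrier lipids, 7 were lower on the keratinocyte-labelled arrays and 4 higher, beside 41.7% and 32.9% of all genes, so that the higher share was near that of all genes. The lower ones included Cers3, the synthase of very long chain ceramides, with 1.65 ± 0.56 on the keratinocyte-labelled arrays and 9.07 ± 0.01 on the MEF-labelled ones (at least 10.3-fold, adjusted p = 3.63e-08). Abca12, the lipid transporter of lamellar granules, was at least 3.30-fold lower, Elovl7 at least 3.21-fold and Sult2b1, a cholesterol sulfotransferase, at least 3.68-fold. Higher were Ugcg, the glucosylceramide synthase (3.58-fold, adjusted p = 6.95e-07), Smpd1 (2.14-fold), Elovl1 (1.94-fold) and Dgat2 (difference 0.35, adjusted p = 0.0376).

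Genes of the lower layers mostly differed in the same direction. All 8 measured spinous layer genes were lower on the keratinocyte-labelled arrays, with a median of -1.87: Perp, a desmosome component, by at least 19.7-fold, Sfn, the 14-3-3 protein of keratinocytes, by at least 19.9-fold, Lypd3 by at least 3.85-fold, and Ly6d by -2.09 without passing background. Of 13 basal layer genes 12 were lower, with a median of -4.81, where 41.7% of all genes were lower. The basal keratins Krt5 and Krt14 averaged 2.62 ± 0.63 and 3.16 ± 0.35 on the keratinocyte-labelled arrays, and 12.45 ± 0.03 and 12.16 ± 0.04 on the MEF-labelled ones. These are at least 108-fold and 87.8-fold lower (adjusted p = 1.47e-08 and 2.66e-09). Col17a1 and Lamb3, which anchor basal cells, were at least 25.3-fold and 7.95-fold lower, whereas Dst was 1.56-fold higher. Of 7 genes of activated keratinocytes, the state of wounded skin and of culture, 6 were lower: Krt6a by at least 18.9-fold, Krt17 by at least 39.7-fold, Serpinb6c by at least 3.33-fold, and Krt16 with a difference of -4.77 but above background on 1 MEF-labelled array only. Il1rn, the interleukin 1 receptor antagonist, was at least 3.11-fold higher on the keratinocyte-labelled arrays (adjusted p = 1.36e-07).

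**Figure D3:**
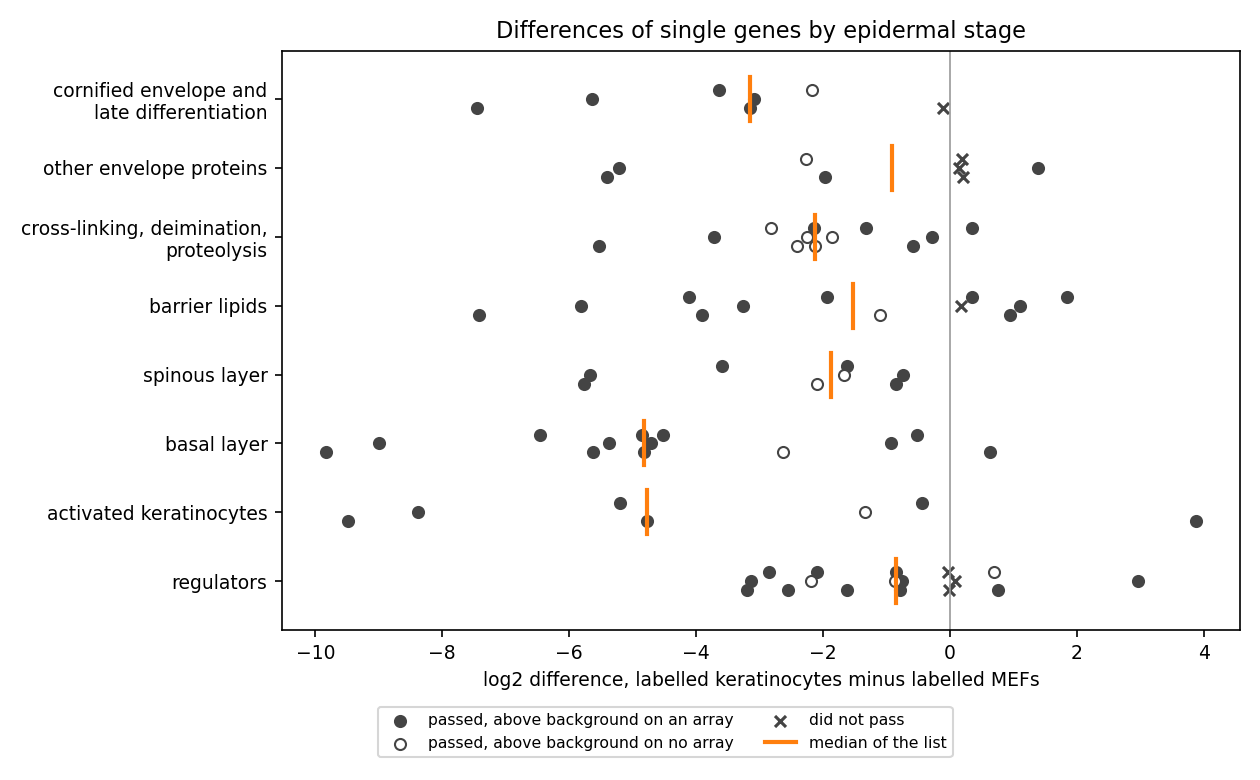
Log2 difference of each measured gene, keratinocyte-labelled arrays minus MEF-labelled arrays, in 8 lists ordered from the last stage to the basal layer, with activated keratinocyte genes and regulators below. Filled points passed and were above background on an array, open points passed and were above it on none, crosses did not pass, and the bar is the median, which was -3.15 for the 7 genes and -4.81 for the basal layer.

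How many genes of each stage were above background on all 3 MEF-labelled arrays can be set side by side: 11 of 13 basal, 5 of 8 spinous, 7 of 12 enzyme, 8 of 12 lipid and 4 of 7 activated genes, 3 of the 7 genes described here and 2 of 8 other envelope proteins, against 43.4% of all genes. Above background on all 3 keratinocyte-labelled arrays were 5 of 13 basal, 2 of 8 spinous, 5 of 12 enzyme, 4 of 12 lipid and 2 of 7 activated genes, 0 of the 7 genes described here and 1 of 8 other envelope proteins, Cdsn, against 55.6% of all genes. For regulators the count was 9 of 17 in each group of arrays. Counts of genes above background on all 3 MEF-labelled arrays and on none labelled keratinocytes were lower for most lists. They were 7 of 13 basal, 3 of 8 spinous, 2 of 12 enzyme, 4 of 12 lipid and 3 of 7 activated genes, and 2 of 17 regulators. For the 7 genes described here the count stayed at 3 and for other envelope proteins at 2 of 8, against 3.06% of all genes. These shares rest on few genes and on 1 threshold, so no order of stages was tested. Signals of different probe sets are not comparable as levels.

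Of 17 measured regulators of terminal differentiation, 11 were lower on the keratinocyte-labelled arrays, 3 higher and 3 did not pass, and 7 were lower where a log2 difference of at least 1 was required, beside 41.7% lower among all genes without that requirement. Among the lower ones the transcription factors Tfap2a (-3.19), Tfap2c (-3.13) and Vdr, the vitamin D receptor (-2.85), and the receptor Notch1 (-2.55, 5.86-fold lower, adjusted p = 5.91e-08) had the largest differences. Higher were Ahr, the aryl hydrocarbon receptor (2.97, at least 2.53-fold), Maf (1.69-fold) and Cebpa (0.69, above background on no array).

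Neighbours of the 7 genes on the chromosome were called in both directions. Among the 5 measured genes on each side of Sbsn, Dmkn and Krtdap, 3 were lower on the keratinocyte-labelled arrays, 6 higher and 1 did not pass, beside 41.7% lower and 32.9% higher among all genes; with so few genes nothing is read from these counts or those below. The next genes Haus5 (-0.52) and Hamp2 (0.80) bracket the trio with small differences, while Lsr, of the tricellular junction, was lower (-3.57, at least 2.64-fold) and Fxyd5 higher (2.91, at least 1.82-fold). Around Sprr1b and Sprr1a, 6 were lower, 1 higher and 3 did not pass. S100a14 was lower (-6.04, at least 4.81-fold) and S100a4 higher (2.14, above background on 1 keratinocyte-labelled array only). Around Cnfn 1 was lower and 7 higher, and around Tgm1 4 were lower and 2 higher. In the epidermal differentiation complex as a whole, from S100a10 to S100a1, which holds 70 protein-coding genes in RefSeq, 14 genes were measured with Sprr2j-ps and both Sprr1 genes included, and 8 were lower, 3 higher and 3 did not pass.

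**Figure D4:**
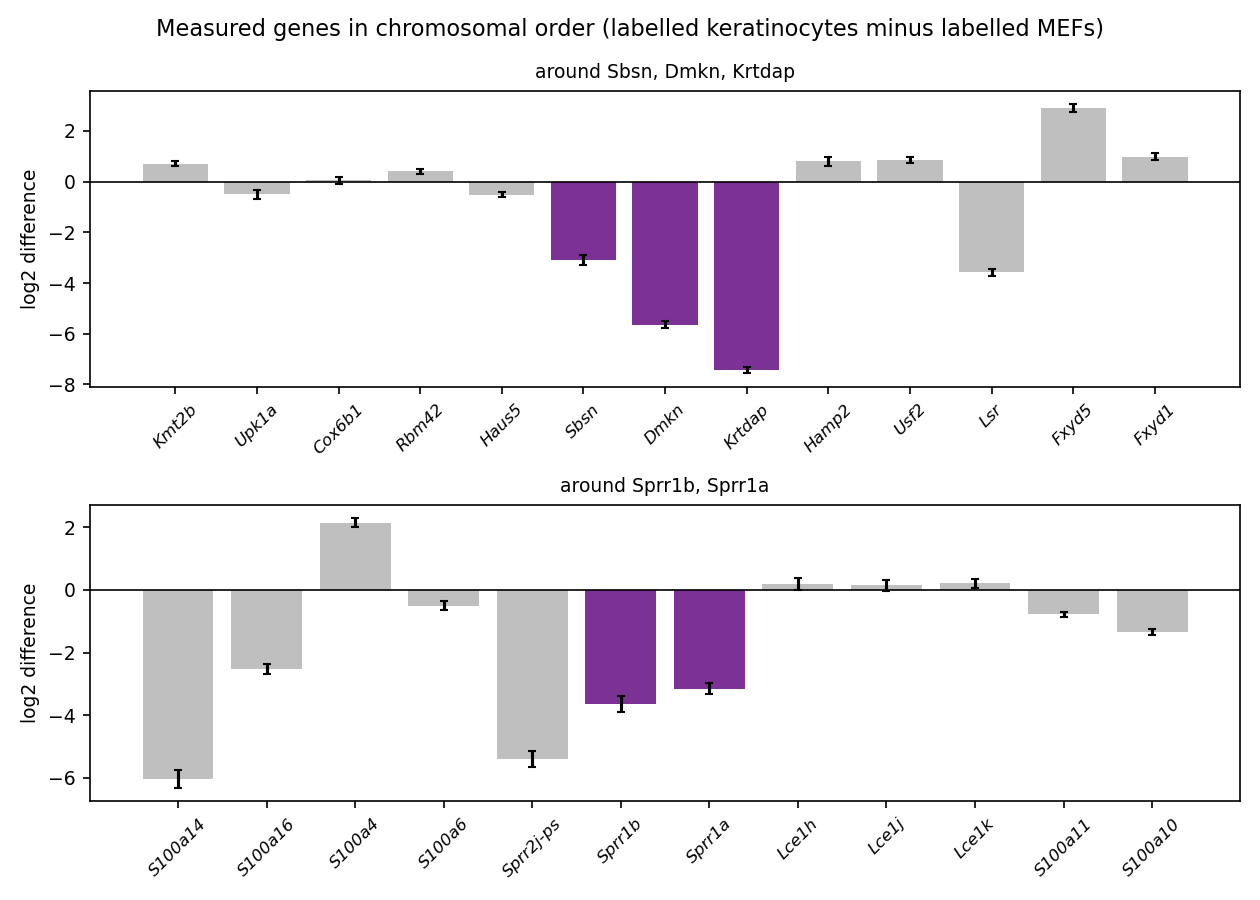
Log2 difference (keratinocyte-labelled arrays minus MEF-labelled arrays, bars with SE) of measured genes in chromosomal order around Sbsn, Dmkn and Krtdap (top) and around Sprr1b and Sprr1a (bottom). Genes of the 7 are purple and other genes grey; Krtdap is the lowest bar of the top panel and S100a14 of the bottom one.

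The genes most like each of the 7 over the 6 arrays were those with the smallest root mean square difference after centring. For Krtdap they were Prl2c5 (0.153 on the log2 scale) and Plet1 (0.180), for Dmkn Cpa4 (0.111) and Abca12 (0.148), for Sbsn Camsap3 (0.110) and Abcb1b (0.157), and for Tgm1 Ptpn3 (0.0949) and Tnfrsf26 (0.101). For Sprr1a they were AU018091 (0.0809) and Procr (0.127), for Sprr1b Ifi202b and Frmpd1 (0.172 each) and for Cnfn Hoxb6 (0.0321) and Smim41 (0.0462). With 6 arrays in 2 groups this measure mostly ranks genes by the size of the group difference.

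Markers of other cells also differed between the groups, and their part in the results was not tested; those of fibroblasts ran against the labels, as Cdh1 and Vim did. All 14 fibroblast markers were higher on the keratinocyte-labelled arrays, beside 32.9% of all genes. On all MEF-labelled arrays 0 of 14 passed background, against 43.4% of all genes. The log2 of their summed signal was 14.29 to 14.36 on the keratinocyte-labelled arrays and 7.53 to 7.61 on the MEF-labelled ones. Among all genes 41.7% were lower, so that counts from the lists of 2 or 4 genes below say little. Postn averaged 10.88 on the keratinocyte-labelled arrays and 1.53 on the MEF-labelled ones, and Col1a2 was at least 66.8-fold higher. Of 4 simple epithelium genes 3 were lower, with sums of 6.90 to 7.04 on the keratinocyte-labelled arrays and 10.10 to 10.23 on the MEF-labelled ones, among them Krt8 (22.3-fold) and Krt7 (at least 4.21-fold), and Krt19 was higher (0.35, adjusted p = 0.0373). Of 2 mucosal markers 1 was lower, the uroplakin Upk1b, at least 5.00-fold, and Pax9 was higher (0.27, above background on no array), with sums of 4.79 to 5.22 on the keratinocyte-labelled arrays and 8.01 to 8.23 on the MEF-labelled ones. Of 2 macrophage markers Cd68 was lower (at least 7.28-fold) and Lyz2 higher (3.74, above background on 1 keratinocyte-labelled array only). Their sums were 5.58 to 6.23 on the keratinocyte-labelled arrays and 8.45 to 8.69 on the MEF-labelled ones. Of 4 muscle markers Tnnt2 was lower (-1.51) and 3 were higher, Des by 3.87 but above background on 1 keratinocyte-labelled array only. The sums of the 4 were 8.22 to 8.59 on the keratinocyte-labelled arrays and 7.48 to 7.61 on the MEF-labelled ones. Both endothelial markers, Kdr and Egfl7, were lower without exceeding background on any array, with sums of 5.15 to 5.37 on the keratinocyte-labelled arrays and 6.31 to 6.53 on the MEF-labelled ones. Melanocyte markers were not analysed here.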

How the data were processed

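RNA of 3 keratinocyte-labelled arrays and 3 labelled MEFs was read as log2 values that the authors deposited as 1 table of 15648 probe sets; per the methods and the submitters' processing notes these are RMA values from oligo 1.46.0. RMA brings arrays to 1 distribution and compresses dim signals, and over which arrays it was run was not stated in the sources used here. The platform table names 11933 probe sets, 11288 with 1 symbol and 645 with several, which stayed unnamed, as did 3715 without an entry; 11274 were found in RefSeq (GRCm38.p6), which gave symbols, gene order and promoters. Of 10261 genes, 572 had several probe sets and took the brightest.

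Groups came from the sample labels. Differences are keratinocyte-labelled arrays minus MEF-labelled arrays, fitted without a block with limma 3.58.1 (lmFit and eBayes, R 4.3.3) over all 11288 probe sets, with Benjamini-Hochberg adjustment and a threshold of 0.05. The fit was tested on simulated data. "At least" folds set the brighter group's mean against the dimmer group's mean of, per array, the higher of its background and its own signal. They take no account of the brighter group's own background, which was higher on the MEF-labelled arrays. Such a fold is no secure minimum where the brighter signal lay near that background, as for Sprr1a, Sprr1b and Sbsn. With 3 arrays a group, their number limits the precision. The p-values of the fit set each difference against the spread between these arrays, which eBayes moderates over all probe sets fitted. Figures used matplotlib 3.10.9 in Python 3.11.15.

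Named are the 7 genes, Cdh1 and Vim, up to 4 genes of each list with the largest differences past the threshold, genes above background that passed against their list's direction, stage markers, up to 2 markers of each other cell type, up to 4 chromosomal neighbours, and the 2 nearest patterns of each gene. Cebpa was named outside these rules. Haus5, Hamp2, Krt19, Pax9 and the Lce1 genes were named after their values were seen. The genes, lists and tests were chosen with earlier results of these data known. The fit was repeated with a replicate block, without each array, after median centring or quantile normalization, without dim probe sets by 2 rules, with robust eBayes and an intensity trend, with array weights, with the methods' t-test, with a gene's probe sets averaged, over all deposited probe sets, with a minimum log2 difference of 1 and against other background levels.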

Additional observations from a re-analysis of the deposited data

How the results depend on the processing

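Every one of the 7 genes kept its direction and its side of the threshold under each alternative that could be fitted, with differences of -7.58 to -7.35 for Krtdap, -5.85 to -5.48 for Dmkn, -3.85 to -3.39 for Sprr1b, -3.33 to -3.00 for Sprr1a, -3.24 to -2.91 for Sbsn, -2.39 to -1.94 for Tgm1 and -0.20 to -0.01 for Cnfn. Filters on dim probe sets removed genes and so lowered counts. Without the dimmest 25% of probe sets, 2 of 3 remaining other envelope proteins, 6 of 7 enzymes, 4 of 9 lipid genes and 3 of 4 activated genes were lower, and Tgm1 and Cnfn left the fit. With probe sets above background on at least 3 arrays only, 3 of the 7 genes were tested and all 3 (Sprr1b, Krtdap and Dmkn) were lower, as were 2 of 3 other envelope proteins, 6 of 7 enzymes and 5 of 5 spinous genes. With a log2 difference of at least 1 required, 7 regulators were lower in place of 11. Median centring moved the median of all genes to -0.02 and gave 3733 lower and 3801 higher genes, against 4278 and 3371. Same-numbered arrays did not deviate together from their group means (r = -0.23, -0.21 and -0.03). With 3 arrays a group, these values cannot tell whether such arrays share an animal, a day or a batch. With a replicate block 6 of the 7 genes were lower, 3942 of all genes were lower and 3117 higher, and no call of the 7 genes changed. Leaving out each array in turn left 6 of the 7 genes lower each time.

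The background rests on 10 probe sets. With their maximum as background 5 of the 7 genes passed it on an MEF-labelled array, 2 of them (Krtdap and Dmkn) on all 3. With their median, chosen after seeing the data, all 7 passed on all 3 MEF-labelled arrays. Cnfn then also passed on all 3 keratinocyte-labelled arrays, where that median was 4.26 to 4.51. The planned wider receptor list held the same 10 probe sets. Statements on the stage of the culture therefore depend on this level, which for Tgm1, Sprr1a, Sbsn and Cnfn lay close to or above the signal. For Sprr1b it lay only 0.27 and 0.37 under the signal of replicates 1 and 3 of the MEF-labelled arrays.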
